A study of Schizosaccharomyces pombe with 24 samples.

Results

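Fission yeast (Schizosaccharomyces pombe) cells that lack the transcription factor Pho7 and had been without phosphate for 12 h were compared with wild-type (WT) cells growing with phosphate. The question was which transcripts differ between these states, and how much of each difference was already there before phosphate was withdrawn. Poly(A)+ RNA had been sequenced in 24 libraries, of which the groups compared hold 3 each. WT was strain AGP72 (h-), sampled in log phase in YES, the complex medium with yeast extract, at time 0 h. The pho7Δ cells were strain AGP83 (h- pho7delta::natMX), sampled in log phase in YES (0 h) and 12 h after transfer to ePMGT(-PO4), a defined medium with glutamate and thiamine but no phosphate. According to the study's strain list, all of its strains also carry mutant alleles of leu1, ura4, his3 and ade6, so WT here means a pho7+ strain with several auxotrophies. One strain stood for each genotype, so at 0 h the deletion and any other difference between the strains cannot be told apart. Starved WT cells and pho7Δ cells moved to ePMGT with phosphate are not analysed here, so within the step from 0 h to 12 h the loss of phosphate and the change of medium cannot be told apart.

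Each value below is the authors' average normalized read count over the 3 libraries of a group. The averages carry no spread between libraries, so no test was possible, and whether a difference is larger than the replicate error cannot be said from them. They are relative values of whole cultures, in which fewer cells of a kind and less RNA per cell cannot be told apart. A gene counted as measured when its average was 100 or more in the higher group, which held for 5760 of 6987 genes. It was called higher or lower when the averages differed 2-fold or more, computed as a log2 ratio of (average + 1). The log2 ratio at 12 h to WT is the sum of 2 steps, the 0 h step (pho7Δ at 0 h to WT) and the starvation step (pho7Δ at 12 h to pho7Δ at 0 h), and each step was called by the same limits. Both steps use the same pho7Δ average at 0 h. Unless said otherwise, 3 averages in a row are those of WT, pho7Δ at 0 h and pho7Δ at 12 h, and the number in brackets is the log2 ratio of pho7Δ at 12 h to WT.

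Pho7 is a zinc-cluster activator of the genes by which fission yeast obtains phosphate. Its best known targets form the PHO regulon, which comprises the cell surface acid phosphatase Pho1, the phosphate transporter Pho84 and the glycerophosphodiester transporter Tgp1. With phosphate at hand these genes are held down by transcription of long noncoding RNAs across their promoters, and starvation relieves that interference. Starved cells also draw phosphate from nucleotides and from vacuolar polyphosphate, and make fewer ribosomes, whose RNA holds much of the cell's phosphate.

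In pho7Δ at 12 h, 1127 genes were higher and 968 lower than in replete WT, 19.6% and 16.8% of measured genes. Of 4914 measured protein-coding genes 845 were higher and 710 lower, 17.2% and 14.4%. The median log2 ratio over measured genes was -0.01. Of the protein-coding genes called, 325 of those higher and 147 of those lower were 4-fold or more apart, and 70 and 11 were 16-fold or more apart, so large differences lay more often on the higher side. At the edge of the limit, pcf1 just passed with averages of 2551 in WT and 1275 at 12 h, and tlg2 just missed with 675 and 1351.

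The nearest time points of the same strain were compared as neighbours. Over measured protein-coding genes the median size of the log2 difference was 0.158 between 12 h and 8 h and 0.187 between 24 h and 12 h, against 0.65 between 12 h and WT. Of the 845 protein-coding genes called higher, 749 were also 2-fold or more above WT at 8 h and 753 at 24 h. Of the 710 called lower, 577 were 2-fold or more below WT at 8 h and 618 at 24 h. In sign, 845 and 844 of the higher and 709 and 710 of the lower genes stood on the same side of WT. All these ratios use the same WT average, and the genes were chosen by their 12 h ratio to it. The overlap is therefore partly built in and is no independent support for the calls.

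For protein-coding genes called at 2-fold, both steps contributed in similar measure. Over genes of any kind they did not. Of those higher, 259 were called at the 0 h step only and 453 at the starvation step only, and of those lower 389 and 223. The 0 h step called 476 of 5599 measured genes higher and 677 lower (8.5% and 12.1%), and among protein-coding genes 382 and 358 (7.86% and 7.36%). The starvation step called 831 of 5659 higher and 496 lower (14.7% and 8.76%), and among protein-coding genes 513 and 443 (10.5% and 9.05%). Among the 845 protein-coding genes higher at 12 h, 216 were called at the 0 h step only, 290 at the starvation step only and 95 at both. Another 231 passed as the sum of 2 smaller steps, 10 had a starvation step that overcame an opposite 0 h step, and 3 kept part of a 0 h difference. Among the 710 lower genes, 207 were called at the 0 h step only, 206 at the starvation step only, 39 at both and 248 as a sum of smaller steps, while 9 kept part of a 0 h difference and 1 had opposed steps.

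The 0 h step made up a median of 45.7% of the log2 ratio of the higher protein-coding genes (interquartile range 22.3% to 67.8%) and 48.9% of that of the lower ones (21.9% to 77.7%). Read the other way, of the 382 protein-coding genes higher at 0 h, 314 (82.2%) were still called higher at 12 h, 67 were no longer called and 1 was called lower. Of the 358 lower at 0 h, 255 (71.2%) were still called lower, 93 were no longer called and 10 were called higher. Among all protein-coding genes 17.2% were higher and 14.4% lower at 12 h. Both calls use the same WT average, so they are not independent and an error in it would enter both. Scaling the groups to equal totals shifts every log2 ratio of the 0 h step by -0.14, that of the starvation step by 0.089 and that of 12 h to WT by -0.051.

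**Figure D1:**
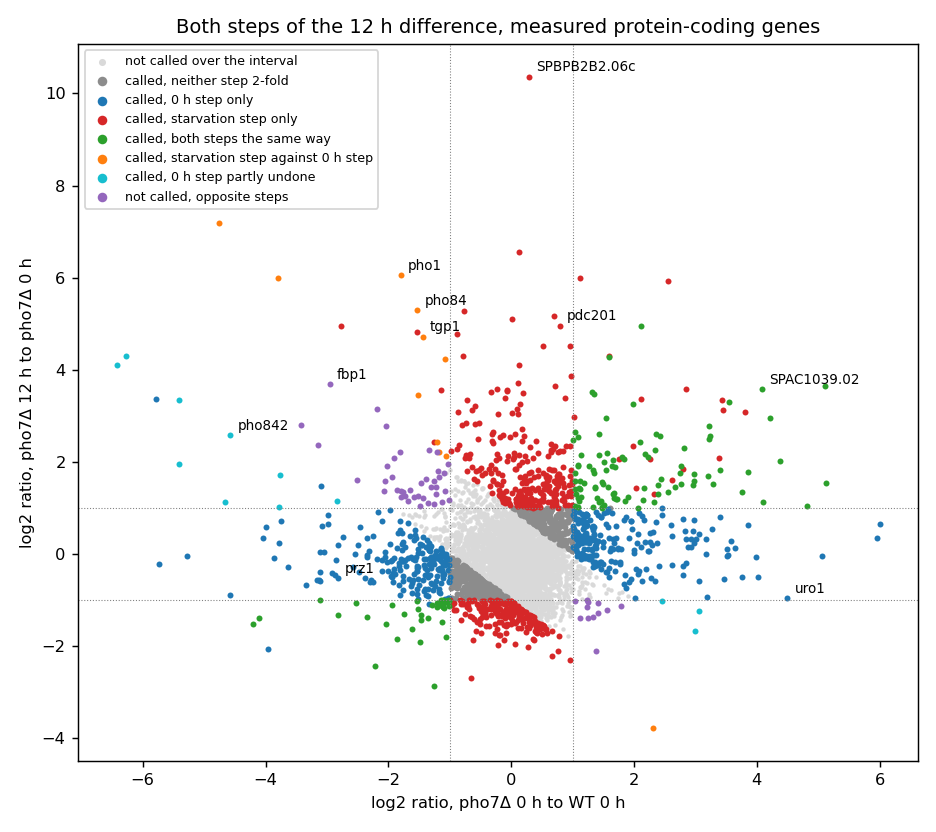
Log2 ratio of pho7Δ at 0 h to WT (horizontal axis) against log2 ratio of pho7Δ at 12 h to pho7Δ at 0 h (vertical axis) for 4914 measured protein-coding genes, coloured by how the 12 h call arose, with dotted lines at 2-fold. pho1, pho84 and tgp1 lie left of the centre and far up (starvation steps of 6.05, 5.30 and 4.72), while prz1 lies far left near the middle height because most of its difference was there at 0 h (-2.82 of -3.35).

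The deleted gene was checked first. pho7 averaged 3147 in WT, 833 in pho7Δ at 0 h and 545 at 12 h, a log2 ratio of -2.53. It was lower in pho7Δ but not at 0, and 17.3% of the WT average was still counted at 12 h. ura4, whose allele in the strain list is a deletion, was listed at 0 in every group. leu1 averaged 7443, 8118 and 9849 (0.40), and ade6, of purine synthesis, 2615, 4363 and 7516 (1.52). his3, whose listed allele is named as a deletion like that of ura4, was still counted, with 223, 245 and 527 (1.23). It lies over 90.6% of its length opposite alg2, which averaged 1084 in WT and 2216 at 12 h. Where the his3 reads came from was not tested. Both strains are h-, whose cells are of the M type, and M cell genes were counted, but without a common direction. The M-factor exporter gene mam1 averaged 1166, 1664 and 1978, and the P-factor receptor gene mam2 3170, 376 and 574. Of the M-factor genes, mfm1 averaged 11.7, 90.6 and 1102, mfm2 569, 1576 and 2742, and mfm3 132, 37.1 and 176. mat1-Mc and mat1-Mi were listed at 0. The P-factor gene map2, a marker of P cells, was counted as well (2079, 275 and 207), and so was map3, for the M-factor receptor of P cells (185, 313 and 409).

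The PHO regulon changed sides between the steps. pho1 averaged 1701 in WT, 487 in pho7Δ at 0 h and 32402 at 12 h. For pho84 the averages were 3790.1, 1313 and 51602, and for tgp1 992, 366 and 9643. All 3 genes were thus lower than in WT before starvation (log2 ratios of -1.80, -1.53 and -1.44) and higher than in replete WT after it (4.25, 3.77 and 3.28). The starvation step had log2 ratios of 6.05, 5.30 and 4.72, more than the whole of the difference to WT. At 8 h and 24 h pho1 averaged 26149 and 28747 and pho84 49277 and 52607, while tgp1 averaged 11861 and 7274.

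The other phosphate transporter genes went different ways, 1 higher and 2 lower. pho841 was higher at each step, with averages of 2608, 5377 and 18238 (2.81). pho843 was lower at each step, with 5680.1, 2612 and 934 (-2.60). pho842 averaged 3002, 125 and 749, so that it lost most of its level at 0 h (a step of -4.58) and regained part of it in a starvation step of 2.58. Its 24 h average was 1394.

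**Figure D2:**
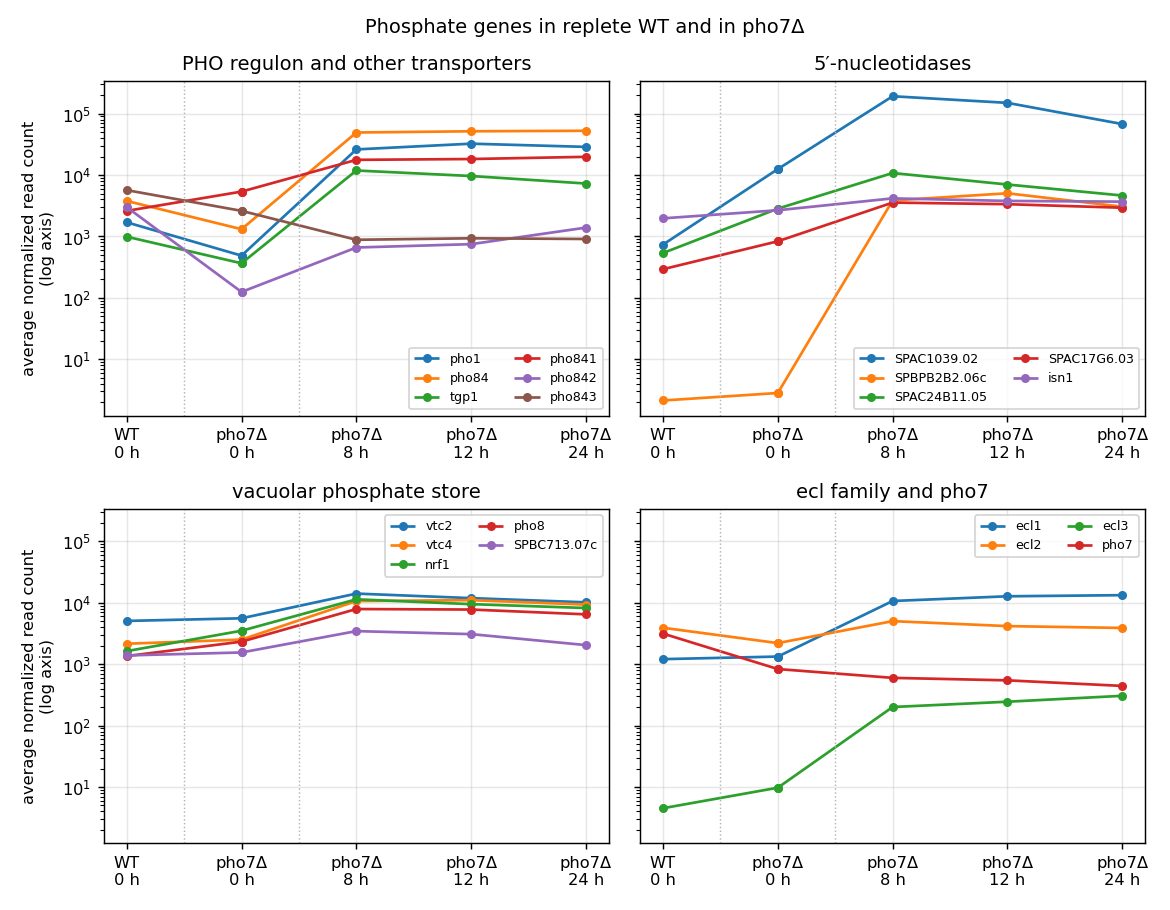
Average normalized read count (log axis) of phosphate genes, the ecl family and pho7 in WT at 0 h and in pho7Δ at 0 h, 8 h, 12 h and 24 h, each point the average of 3 libraries, drawn without error bars because the averages have none. Dotted lines part WT from pho7Δ and the replete from the starved groups. pho1 dips to 487 at 0 h and reaches 32402 at 12 h, whereas SPAC1039.02 is already at 12501 at 0 h.

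Nucleotidases split phosphate from nucleotides outside or inside the cell. Of 5 measured, 4 were higher at 12 h and none lower, against 17.2% higher among all protein-coding genes. Their median log2 ratio was 3.70. The predicted extracellular 5'-nucleotidase gene SPAC1039.02 averaged 738, 12501 and 149751. Its log2 ratio of 7.66 was shared between the steps (4.08 and 3.58), and it averaged 191924 at 8 h and 67639 at 24 h. SPBPB2B2.06c, of the same family, averaged 2.13, 2.82 and 5048 and had the largest ratio of the protein-coding genes called (10.65), nearly all from the starvation step, with both 0 h averages so low that the added 1 holds the ratio down. These genes shared a direction, but only SPAC1039.02 of the pair was called at the 0 h step, for which SPBPB2B2.06c was under the minimum.

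The remaining nucleotidase genes lay between. The predicted pyrimidine 5'-nucleotidase gene SPAC24B11.05 averaged 537, 2838 and 7011 (3.70) and was higher at both steps. SPAC17G6.03, another of the extracellular family, averaged 293, 835 and 3354 (3.51), and its whole length lies opposite cpp1, which averaged 3320 in WT and 1579 at 12 h. isn1, predicted to act on IMP, averaged 1972, 2671 and 3790.4 (0.94) and was not called. The share of all normalized reads that fell on these 5 genes was 0.0213% in WT, 0.103% in pho7Δ at 0 h and 0.981% at 12 h.

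All 5 genes of the vacuolar phosphate store were higher, against 17.2% of all protein-coding genes, with a median of 2.36. Here most of the difference came at the starvation step, which called 4 of them. Over all protein-coding genes 10.5% were higher at that step and 7.86% at the 0 h step. vtc4 and vtc2 encode subunits of the complex that makes polyphosphate. vtc4 averaged 2151, 2512 and 11024 (2.36) and vtc2 5059, 5581 and 11893 (1.23). nrf1, for a further subunit, averaged 1630.3, 3501 and 9487 (2.54) and was the only one of the 5 called at 0 h, a call lost when the groups were scaled to equal totals (a step of 0.96). pho8, for the predicted vacuolar alkaline phosphatase, averaged 1353, 2324 and 7751 (2.52). The predicted polyphosphatase gene SPBC713.07c averaged 1388, 1549.6 and 3084 (1.15) and lies wholly opposite adl1.

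Of 17 other phosphatase and diphosphatase genes 15 were higher at 12 h and none lower (median 1.73), against 17.2% higher among all protein-coding genes. The 0 h step called 4 higher and the starvation step 7, against 7.86% and 10.5% of all protein-coding genes. gep4, for a predicted phosphatidylglycerol phosphate phosphatase, averaged 32.6, 263 and 794 (4.57). SPAC25B8.12c, a hydrolase gene of unknown role, averaged 626, 1864 and 5095 (3.02), and siw14, whose budding yeast namesake acts on inositol pyrophosphates, 880.0, 1566 and 3934 (2.16). Here gep4 and SPAC25B8.12c were called at both steps and siw14 at the starvation step. pud1, predicted to act on pseudouridine 5'-phosphate, averaged 306, 631 and 1898 (2.63), with ryh1 opposite it over 84.0% of its length going the other way (5134 in WT and 1145 at 12 h).

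Of 5 phosphate signalling genes 2 were higher and none lower, against 17.2% higher among all protein-coding genes. asp1, for the enzyme that makes inositol pyrophosphates, averaged 1826, 1918 and 4367 (1.26), and aps1, for a hydrolase of diadenosine polyphosphates and inositol pyrophosphates, 1052, 1912 and 2339 (1.15). The inositol polyphosphate kinase gene kcs1 averaged 4627, 4145 and 2409.7 (-0.94), the kinase gene csk1 1121, 616 and 666 (-0.75), and pqr1, for a ubiquitin ligase with an SPX domain, 3312, 5295 and 5967 (0.85). None of these last 3 was called.

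The ecl genes encode small proteins that extend chronological lifespan. ecl1 averaged 1207, 1329 and 12743 (3.40) and ecl3 4.51, 9.73 and 245 (5.48). Both were called at the starvation step only. ecl2 averaged 3915, 2203 and 4166 (0.09) and was not called.

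The study names 19 genes as depending on Pho7 during starvation, a list drawn from these same libraries and therefore not independent of them. Of 18 measured here, 12 were higher in pho7Δ at 12 h than in replete WT, 1 was lower (pho842) and 5 were not called, with a median of 3.13. As a background, 17.2% of all protein-coding genes were higher. The starvation step called 14 of them higher and none lower, against 10.5% and 9.05% of all protein-coding genes. The study took the list from genes that starvation raised in WT, so a high count at this step partly follows from that choice. The 0 h step, at which 12 were measured, called 1 higher and 4 lower, against 7.86% and 7.36% of all protein-coding genes. Besides genes given above, the list holds SPBPB2B2.05, for a protein of the glutamine amidotransferase family (12.3, 27.9 and 1839.7), and mfm1, an M-factor gene (11.7, 90.6 and 1102; 6.43). These values place the genes against replete WT only, since starved WT is not analysed here.

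Sugar uptake and the use of nitrogen sources were already apart at 0 h. Of 6 measured hexose transporter genes 5 were higher at 12 h and none lower (median 2.20), against 17.2% higher among all protein-coding genes. The 0 h step called the same number higher, against 7.86% of all protein-coding genes. Only 1 was called higher at the starvation step, against 10.5% of all protein-coding genes, and the median of that step was 0.03. ght5, for the high-affinity glucose transporter, averaged 666, 7344 and 5032 (2.92) and ght2 538, 3878 and 3392 (2.65). ght8 averaged 8647, 24318 and 29155 (1.75). ght3, for a gluconate transporter, was the one called at both steps, with 24.6, 161 and 444 (4.12). The levels of ght5 and ght2 in pho7Δ were no higher at 12 h than before the phosphate was withdrawn.

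Of 15 genes for nitrogen source uptake and breakdown 11 were higher and 2 lower at 12 h (median 2.73), against 10 and 1 at the 0 h step (2.81). Shares among all protein-coding genes were 17.2% and 14.4% at 12 h, and 7.86% and 7.36% at the 0 h step. The starvation step called 3 higher and none lower, against 10.5% and 9.05% of all protein-coding genes, and its median was -0.46. isp4, for an oligopeptide transporter, averaged 1011, 12598 and 13701 (3.76), the uricase gene uro1 157, 3579 and 1844 (3.54), and the uracil phosphoribosyltransferase gene uck2 666, 6428 and 9412 (3.82). The predicted urea transporter gene SPBC23G7.13c was higher at both steps, with 22.6, 822 and 2409 (6.67), and shares 89.9% of its length with an antisense RNA. The 2 lower members were isp5, an amino acid permease gene (1324, 494 and 459.9), and amt2, an ammonium transporter gene (6402, 3800.2 and 2540.4). Together the list held 0.191% of all normalized reads in WT, 1.39% in pho7Δ at 0 h and 1.14% at 12 h.

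Of 43 measured transcription factor genes 14 were higher and 6 lower, with a median of 0.28, the lower ones in a share close to the 14.4% of all protein-coding genes. The share higher among all protein-coding genes was 17.2%. Of the higher ones fil1, an activator of amino acid synthesis genes chosen after its values were seen, averaged 7406, 13141 and 41259 (2.48). Of the 6 lower ones 5 were called at the 0 h step only. prz1, for the factor that answers to calcineurin, averaged 38711, 5466 and 3807 (-3.35). mbx1, a MADS-box gene, averaged 14657, 2979 and 1965 (-2.90), and atf31 2483, 103 and 55.1 (-5.47). cuf2, for a factor of middle meiosis, averaged 118, 12.7 and 9.51 (-3.50), and res2, for a subunit of the S phase regulator MBF, 2041, 895 and 708 (-1.53). Of these, atf31, cuf2 and mbx1 lie over most of their length opposite another gene, prz1 and res2 do not. The sixth, cbf11, averaged 4757, 3041 and 2001 (-1.25) and passed as the sum of smaller steps.

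Stress response genes were divided between the steps. Of 24 measured 17 were higher at 12 h and 1 lower (median 1.97), with 11 called higher at the 0 h step and 8 at the starvation step. Among all protein-coding genes 17.2% were higher at 12 h, 7.86% at the 0 h step and 10.5% at the starvation step. The catalase gene ctt1 averaged 666, 9634 and 14813 (4.47), most of it already at 0 h, and 7645 at 24 h. The metallothionein gene zym1 averaged 1904, 3316 and 15624 (3.04), most of it from the starvation step, and 36009.5 at 24 h. srx1, for sulfiredoxin, was higher at both steps, with 99.5, 270.3 and 1196 (3.57). rds1, a ferritin-related gene, averaged 300.3, 8485 and 17411 (5.85), with SPAC343.20 opposite it over 88.8% of its length going the other way (8642 in WT and 1673 at 12 h). The 1 lower gene was gst3, for a glutathione S-transferase, with 7469.7, 2134 and 3507 (-1.09).

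Genes of glycolysis and fermentation included members of each kind. Of 19 measured 14 were higher at 12 h and none lower (median 1.40), with 8 higher and 2 lower at the 0 h step and 6 higher and none lower at the starvation step. Shares higher among all protein-coding genes were 17.2% at 12 h, 7.86% at the 0 h step and 10.5% at the starvation step. At the 0 h step 7.36% were lower. The pyruvate decarboxylase gene pdc101 averaged 26538, 127251 and 152510 (2.52) and was called at 0 h only. pdc201, for the same activity, averaged 162, 282 and 8789 (5.75), was called at the starvation step only and averaged 25901 at 24 h. gpd3, for a glyceraldehyde 3-phosphate dehydrogenase, averaged 5866, 5487 and 57493 (3.29), also at the starvation step only. eno102, for an enolase, was higher at both steps, with 145, 1709 and 16928 (6.86), and lies over 79.2% of its length opposite an antisense RNA. Reads in stretches that paralogs share may have been divided or dropped in the authors' counting. The 19 genes together held 2.22% of all normalized reads in WT, 4.60% in pho7Δ at 0 h and 6.76% at 12 h.

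**Figure D3:**
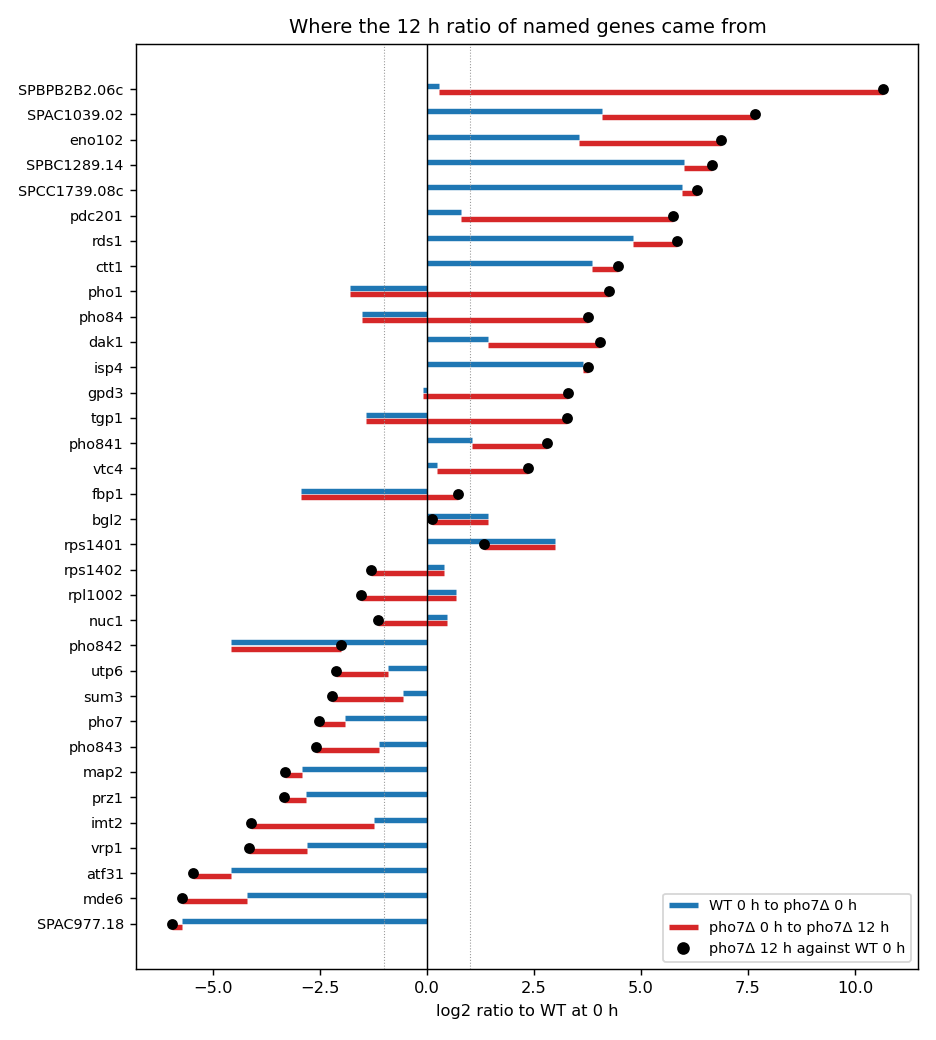
Log2 ratio to WT at 0 h (horizontal axis) of named genes, drawn as the step from WT to pho7Δ at 0 h (blue) and the step from there to 12 h (red), with a black point at the 12 h value and dotted lines at 2-fold. For ctt1 and isp4 the blue step reaches most of the way to the point (4.47 and 3.76), for pdc201 and vtc4 the red step covers most of it (5.75 and 2.36), and for pho1, pho84 and tgp1 the red step starts below 0.

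Of 55 genes for 40S ribosomal proteins 11 were lower, 1 higher and 43 not called at 12 h (median -0.80), and of 83 for 60S proteins 25 were lower, none higher and 58 not called (-0.78), against 14.4% lower among all protein-coding genes. At the 0 h step 1 gene of each list was called, higher in both cases, and the medians were 0.39 and 0.33, with 54 of 55 and 76 of 83 genes above WT. The starvation step called 37 and 59 genes lower and none higher, with medians of -1.17 and -1.11, and it was below 0 for 55 of 55 and 82 of 83 genes. Among all protein-coding genes 9.05% were lower at that step, and 7.86% were higher at the 0 h step. Against replete WT the ribosomal protein genes were thus less far down than against pho7Δ at 0 h. The lists held 4.94% and 6.99% of all normalized reads in WT, 5.91% and 8.03% in pho7Δ at 0 h, and 2.76% and 3.99% at 12 h.

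Single ribosomal protein genes followed that order. rps101 averaged 25244, 30902 and 10061 (-1.33), rps2201 11789, 16651 and 5004 (-1.24) and rpl3702 6025, 6029 and 2111 (-1.51). At 8 h, 12 h and 24 h rps1402 averaged 2294, 4597 and 8896, against 11325 in WT and 14990.1 in pho7Δ at 0 h, so its 12 h value lay between a lower and a higher one. The gene called the other way was its paralog rps1401, with 759, 6054 and 1899 (1.32), which lies wholly opposite aar2. Reads from stretches that such paralogs share may have been divided or dropped, so values of a single copy are uncertain.

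Of 123 ribosome biogenesis genes 42 were lower, 3 higher and 78 not called at 12 h (median -0.77), against 14.4% lower among all protein-coding genes, with 45 lower and none higher at the starvation step (-0.85), and 3 lower and 4 higher at the 0 h step. Among all protein-coding genes 9.05% were lower at the starvation step. At the 0 h step 7.36% of them were lower and 7.86% higher, so the list lay below both shares there. utp6 and utp8, for factors that work on the small subunit precursor, averaged 3163, 1689 and 722 (-2.13) and 4434, 3002 and 1079 (-2.04). bud22 averaged 4401, 1999 and 998 (-2.14). The 3 higher genes, slx9 (1.89), rsa1 (1.55) and alb1 (1.45), were called at the 0 h step only. Of 14 RNA polymerase I genes 5 were lower, none higher and 9 not called (-0.73), among them nuc1, for its largest subunit, with 5919.6, 8217 and 2656 (-1.16).

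RNA polymerase III, which makes tRNAs, gave no common direction, since of 18 measured genes, its repressor Maf1 included, 4 were higher and 2 lower (-0.17). As a background, 17.2% of all protein-coding genes were higher and 14.4% lower. maf1 averaged 425, 511 and 1534 (1.85). The lower genes were rpc1, for the largest subunit (4043, 3108 and 1679.8; -1.27), and sfc4, of TFIIIC (6227, 3199.7 and 2149; -1.53). brf1, of TFIIIB, averaged 102, 608 and 1548 (3.91), but it lies wholly opposite vrp1, which went the other way (8586, 1217 and 482; -4.15).

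Of 35 translation factor genes 13 were lower, 1 higher and 21 not called (-0.72), with 15 lower and none higher at the starvation step. Shares lower among all protein-coding genes were 14.4% at 12 h and 9.05% at the starvation step. sum3, for an initiation helicase, averaged 62408, 42097 and 13289 (-2.23), tif5, for eIF5, 34480.5, 18134 and 7777 (-2.15), and tif213, for a subunit of eIF2, 10056, 8382 and 2549 (-1.98). The higher one was tif51, for eIF5A, with 14815, 33574 and 35884 (1.28). Of 36 aminoacyl-tRNA synthetase genes 5 were lower and 1 higher (-0.33), and of 74 mitochondrial ribosomal protein genes 8 were lower and 5 higher (-0.18). In both of these lists the share lower did not exceed the 14.4% of all protein-coding genes. The proteasome list had 1 lower gene of 35, rpn2 (20062, 11582 and 8192; -1.29), and none higher.

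Autophagy genes serve to break down and reuse cell contents. Of 33 measured 12 were higher, 1 lower and 20 not called at 12 h (median 0.81), against 17.2% higher among all protein-coding genes. The 0 h step called 3 higher and 4 lower, a little above the 7.86% and 7.36% of all protein-coding genes. The starvation step called 16 higher and none lower (0.99), against 10.5% and 9.05% of all protein-coding genes. isp6, for a vacuolar protease, averaged 2403, 7815 and 17865 (2.89) and atg10, for a conjugating enzyme, 146, 316 and 699 (2.25), both called at both steps. atg12, for the ubiquitin-like modifier, averaged 85.2, 168 and 599 (2.80) and was called at the starvation step. The lower gene was atg16, with 934, 357 and 330.4 (-1.50), called at the 0 h step only.

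**Figure D4:**
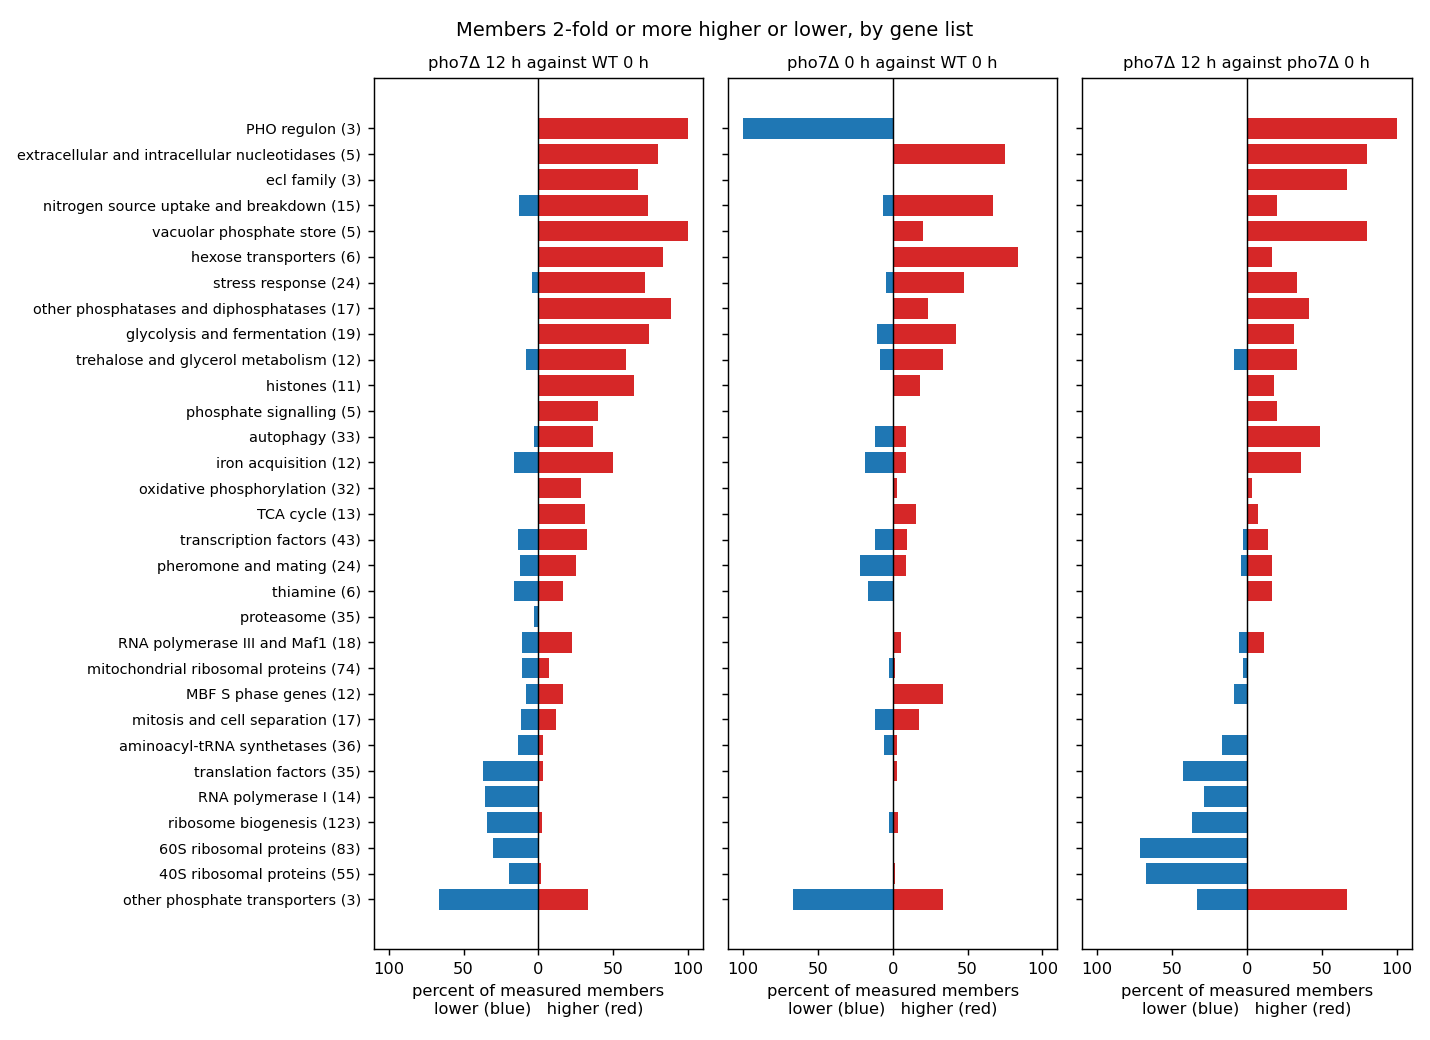
Percent of the measured members of 31 gene lists that were 2-fold or more higher (red) or lower (blue), for pho7Δ at 12 h against WT (left), pho7Δ at 0 h against WT (middle) and pho7Δ at 12 h against 0 h (right), with the number of measured members at 12 h in brackets. For 60S ribosomal proteins no gene is lower in the middle and 59 of 83 are on the right, and for hexose transporters 5 of 6 are higher in the middle and 1 on the right.

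Of 32 oxidative phosphorylation genes 9 were higher, none lower and 23 not called (median 0.62), against 17.2% higher among all protein-coding genes, and 7 of the 9 passed as the sum of smaller steps, like qcr8 of complex III (2359.8, 3657 and 6792; 1.52). The TCA cycle had 4 of 13 higher, none lower and 9 not called (0.56), with the citrate synthase gene cit1 at 3749.8, 11260.4 and 14318 (1.93). In the trehalose and glycerol list 7 of 12 were higher and 1 lower (1.28). dak1 and dak2, for dihydroxyacetone kinases, averaged 3533, 9557 and 58243 (4.04) and 1046, 1191 and 13366 (3.67). The lower gene, gpt1 (8131, 3505 and 1577; -2.37), encodes a glucosyltransferase of glycoprotein folding and belongs to neither pathway.

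Both steps were called in the same direction for 95 higher and 39 lower protein-coding genes. nrg1, for a predicted amino acid transporter, averaged 64.3, 282 and 8733 (7.06). hhy1, for a predicted hydrolase, averaged 58.4, 1098 and 8459 (7.16), and SPAPB1A11.03, for a predicted cytochrome b2, 3.80, 164 and 2072 (8.75), and both lie wholly opposite another gene. Of the lower ones, mde6, a kelch repeat gene expressed in meiosis, averaged 38977, 2117 and 738 (-5.72), meu27 6282, 362 and 137 (-5.50) and the species-specific gene SPAPB24D3.07c 87216, 18853 and 3479 (-4.65). Of the 10 protein-coding genes with the largest decrease, 8 lie over 50% or more of their length opposite another gene, these 3 among them.

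Among differences that were there at 0 h and stayed, SPBC1289.14, for a predicted adducin, averaged 7.31, 535 and 835 (6.65), and SPCC1739.08c, for a predicted short chain dehydrogenase, 18.1, 1185 and 1509 (6.31). On the lower side the membrane protein genes SPAC977.18 and SPBPB2B2.18 averaged 4588, 85.3 and 72.7 (-5.96) and 1262, 31.5 and 30.3 (-5.33), with no gene opposite over more than 1.23% of their length. mug95 had the largest decrease of the protein-coding genes called, with 722, 45.4 and 10.2 (-6.02). Its starvation step of -2.06 was not called because both averages were under 100, as also happened to ftm2 (479, 7.72 and 88.6). Among all 1555 protein-coding genes called, 23 had a 2-fold 0 h step and 4 a 2-fold starvation step that went uncalled for this reason.

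Called higher at the starvation step only were hry1, for a predicted cation-binding protein, with 1.90, 16.1 and 1043 (8.49), and hsp3105, of the ThiJ family, with 6.35, 7.06 and 754 (6.68). In sign hry1 was above WT at 0 h as well, though under the minimum. Among lower genes called at the starvation step only, that step was -2.69 for meu6, with averages of 862, 547 and 83.6, and -2.22 for rpl1002, with 7921, 12597 and 2705. It was -2.11 for the predicted sorbose reductase gene SPAC8E11.10, with 3011, 5118 and 1183. Of these genes meu6 and rpl1002 lie wholly opposite another gene, and hsp3105 over 57.2% of its length.

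For some genes the steps worked against each other. SPAC869.03c and SPAC869.04, chosen after their values were seen, were with pho1, pho84 and tgp1 among the 10 higher genes whose starvation step overcame an opposite 0 h step. SPAC869.04 averaged 360.0, 12.4 and 1941 (2.43) and SPAC869.03c 282, 19.3 and 1284 (2.18). SPCC330.03c, for a predicted NADPH-hemoprotein reductase and chosen in the same way, averaged 12834, 148 and 2562 (-2.32), so a loss at 0 h was made good in part. A further 53 protein-coding genes ended within 2-fold of WT because opposite steps of 2-fold or more cancelled, 40 of them lower first and 13 higher first. fbp1, for the fructose-1,6-bisphosphatase of gluconeogenesis, averaged 6741, 867 and 11190.3 (0.73) and lies wholly opposite an antisense RNA. elo2, for a predicted fatty acid elongase, averaged 2173, 7505 and 3446 (0.67), and bgl2, for a glucan glucosidase, 2431, 6489 and 2649 (0.12). A comparison of 12 h with WT alone would show none of these as different.

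Noncoding RNAs divided differently from mRNAs. Of 806 measured 274 were higher (34%) and 249 lower (30.9%) at 12 h. Those lower had mostly been lower before starvation, 178 of 249 being called at the 0 h step only and 16 at the starvation step only, and the 0 h step made up a median of 85.4% of their log2 ratio. Those higher had mostly become so at the starvation step, 158 of 274 at that step only and 42 at the 0 h step only, with a median 0 h share of 30.7%. Over all measured noncoding RNAs, the 0 h step called 92 of 701 higher and 301 lower. The starvation step called 298 of 727 higher and 51 lower. The split of the called RNAs thus went the way each step went over all of them. prl24, a polyadenylated noncoding RNA, averaged 4997, 66.2 and 67.4 (-6.19) and the intergenic SPNCRNA.1482 7254, 80.3 and 117 (-5.95). Both had lost nearly all of their level by 0 h. On the higher side SPNCRNA.1255 averaged 5.72, 34.0 and 1894 (8.14), most of it at the starvation step.

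**Figure D5:**
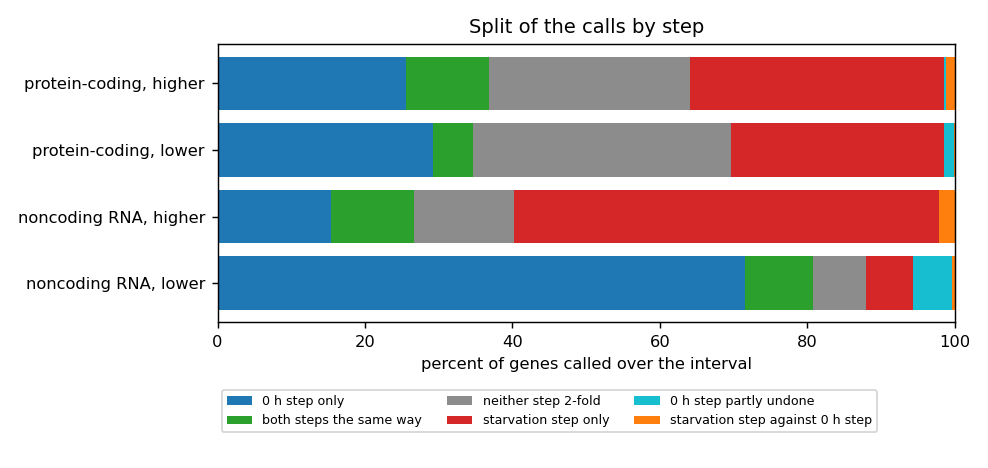
Percent of the genes called at 12 h against WT that fall into each class of the split by step, for 845 higher and 710 lower protein-coding genes and 274 higher and 249 lower noncoding RNAs. The blue part (0 h step only) holds 71.5% of the lower noncoding RNAs and 15.3% of the higher ones, and the red part (starvation step only) 6.43% and 57.7%.

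Among RNAs named as antisense, ams2-antisense-1 averaged 8784, 935 and 152 (-5.85) and osh3-antisense-1 3076, 104 and 51.5 (-5.87), both lower. SPCC569.02c-antisense-1 averaged 5.47, 101 and 1761 (8.09), bst1-antisense-1 3.10, 22.6 and 1115 (8.09) and hhf3-antisense-1 12.4, 33.1 and 2394 (7.48), all higher. As a background, 34% of measured noncoding RNAs were called higher and 30.9% lower. For the sense genes the background is that of measured protein-coding genes, 17.2% higher and 14.4% lower. Of 349 measured antisense RNAs whose sense gene is in the table, 144 were lower, and their sense genes were higher in 30 cases, lower in 17 and not called in 97. For the 102 higher ones the sense genes were higher in 20, lower in 19 and not called in 63. These shares of sense genes were not far from those of all protein-coding genes, and a relation between sense and antisense was not tested. imt2, a mannosyltransferase gene, was an opposed pair, with 4466, 1876 and 258 (-4.11) for the gene, while imt2-antisense-1 averaged 43.3 in WT and 832 at 12 h.

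The library kit keeps the strand, but no source used here states the strand setting with which reads were counted, so values of genes that lie opposite each other are uncertain. This also goes for mug95 and nmt1, which lie wholly opposite another gene, and for atg12 (81.1%) and amt2 (70.5%). Of protein-coding genes, 191 of 845 called higher (22.6%) and 158 of 710 called lower (22.3%) lie over 50% or more of their length opposite another gene, against 20.7% of all measured. Without such genes, an alternative chosen after seeing the data, 773 genes of any kind were higher and 619 lower.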

How the data were processed

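Poly(A)+ RNA of S. pombe was sequenced by the authors in 24 libraries (8 groups of 3), made with a stranded mRNA kit and read as paired ends. Per the submitters' processing notes, HISAT2 2.1.0, SAMtools, HTSeq 0.10.0 and DESeq2 were used with genome build ASM294v2. The deposited tables hold, per gene, one normalized read count per group that the authors averaged over its libraries, a signal whose scale factors and depth per library are not given in the sources used here, beside the authors' own comparison columns (mean over groups, log2 fold change, its error, test statistic, p-values), which were not used. The summed averages were 16621902 in WT, 18319132 in pho7Δ at 0 h and 17219428 at 12 h.

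Log2 ratios of (average + 1) were computed in Python 3.11.15 with pandas 2.3.3 and numpy 2.4.6, and figures drawn with matplotlib 3.10.9. The ratio script was tested on simulated data. Limits of 2-fold and 100 follow the study's methods. No count model, p-value or interval was possible from averages. Symbols came from the tables, with 225 filled in from RefSeq (6833 of 6987 IDs matched; assembly ASM294v3, used only for names, neighbours and opposite-strand overlap, so no coordinates or sequences are printed). The named genes were pho7 and strain markers, all members of the phosphate and ecl lists, the largest increases and decreases, the largest steps of each class of the split, and up to 4 members of every other list with the largest ratio plus those called against its majority; not every one is printed. There were 33 lists, and 12 listed symbols found no row. The comparison, the members and the lists were chosen with earlier results of these data known. Alternatives were other scalings, pseudocounts, minimums and folds.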

Additional observations from a re-analysis of the deposited data

How the results depend on the processing

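Scaling to equal totals, centring on the median, a pseudocount of 10 or none, and a minimum of 20 kept all 13 summary counts within 1.5 times; the share of higher among called genes ran from 50.9% to 60.3% over all alternatives (53.8% as reported). With a minimum of 500 the starvation step called 536 genes higher instead of 831, 107 instead of 188 genes were called at both steps, and 57 instead of 124 cancelled. Without a minimum these last were 298 and 198. At 4-fold, 473 genes were higher and 311 lower at 12 h, 139 and 235 at the 0 h step, and 250 and 21 at the starvation step; 267 were called at the 0 h step only, 169 at the starvation step only, 24 at both and 316 as a sum of smaller steps, and 18 cancelled. Both remaining alternatives were chosen after seeing the data. Without genes lying 50% or more opposite another gene, 619 were lower at 12 h and 354 at the 0 h step, 517 were higher at the starvation step, 387 were called at the 0 h step only and 105 at both, and 65 cancelled; fewer genes enter there. With no minimum on single steps, 231 cancelled. Of the values of single genes and lists, 16 lost their 2-fold call or moved over 1.5 times with equal totals (611 did not), 10 with median centring and 5 with a pseudocount of 10, among them the 0 h steps of pho841 (0.90), nrf1 (0.96), slx9 (0.88), rsa1 (0.93) and atg10 (0.97) at equal totals. No result reversed, but the medians at the 0 h step of the ribosome biogenesis, mitochondrial ribosomal, phosphate signalling and strain marker lists, and at 12 h of the proteasome and thiamine lists, change sign with the scaling. No paired analysis was possible because only group averages were used, and for the same reason no library could be left out. Depth limits low averages, whose ratios the added 1 pulls towards 0.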

Other observations

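Genes called in the same direction also lay side by side on the chromosomes, in a description made after their values were seen. There were 14 runs of 4 or more adjacent protein-coding genes called higher at 12 h (64 genes) and 5 runs called lower (20 genes), without any comparison with the number to be met by order alone. The longest run, of 7 genes, ends in ecl3, pho84 and pho1 and begins with cao2, for a copper amine oxidase-like protein, which averaged 217, 118 and 3256 (3.90). All 4 genes ahead of ecl3 in it were called at the starvation step only. A run of 5 holds urg2, urg3, urg1, toe1 and uck2, and all of them were called at the 0 h step only. Of these, urg1, for a predicted GTP cyclohydrolase, averaged 8645, 117315 and 83378 (3.27), and urg2, for a predicted uracil phosphoribosyltransferase, 4491, 72661 and 51264 (3.51). In the run from put4 to hry1, the proline permease gene put4 (574, 2509 and 4458) was called at 0 h only and the other 4 genes at the starvation step only.

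Of 12 iron acquisition genes 6 were higher and 2 lower at 12 h (median 0.77). As a background for the lists of this paragraph, 17.2% of all protein-coding genes were higher and 14.4% lower. str1, for a siderophore transporter, averaged 98.0, 463 and 1992 (4.33), the heme transporter gene str3 12.1, 3.52 and 127 (3.29), and the iron permease gene fip1 244, 256 and 1567 (2.68). The lower ones were frp2, for a ferric reductase (426, 71.9 and 71.8; -2.55), and sib2, of siderophore synthesis (2840.1, 972 and 929; -1.61). Of 11 histone genes 7 were higher and none lower (1.109), with hht3 averaging 5565, 11505 and 30356 (2.45). Of 12 S phase genes under MBF 2 were higher (cdc22 and cdc18) and 1 lower (mik1). The thiamine list had 1 higher gene, nmt1 (69.9, 112 and 548; 2.95), and 1 lower, thi9 (4616, 1304 and 1079; -2.10), of 6.

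Of 24 pheromone and mating genes 6 were higher and 3 lower (0.24), against 17.2% and 14.4% of all protein-coding genes. mei2, for the RNA-binding protein that starts meiosis, averaged 846, 2163 and 7342 (3.12). The lower ones were map2, the P-factor receptor gene mam2 (3170.4, 376 and 574; -2.46) and the protease gene sxa1 (28864, 13590.0 and 6502; -2.15). map2 and mam2, genes of opposite mating types, were both called at the 0 h step only.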
